A study of Mus musculus with 2 samples.

Results

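The genes described here encode the proteins of the mitochondrial ribosome, chosen by name as the protein-coding RefSeq genes whose symbols begin with Mrpl or Mrps and a digit. They numbered 78 of the 21887 protein-coding genes on chromosomes 1 to 19, X and Y, with 49 Mrpl genes and 29 Mrps genes. Binding of TOBF1, the protein of A830080D01Rik, was mapped by ChIP-Seq in R1/E mouse embryonic stem (ES) cells grown with serum and LIF. The cells carried a tagged TOBF1 gene on a bacterial artificial chromosome (BAC), and the tagged protein was pulled down through GFP, from chromatin crosslinked by formaldehyde plus DSG. A library of input chromatin from cells with the same construct, made without antibody, was the control; no file of it was analysed here. Whether the cells were a single clone is not given in the sources used here. With 1 TOBF1 library, no value has a replicate error, and all shares are descriptions of that library. Of the 12181 deposited peaks (median width 216 bp), 12012 lay on the chromosomes. No expression was measured and no precipitation from untagged cells was used here, so TOBF1 binding and signal that active genes may give with any antibody cannot be told apart. The ES cell genes Pou5f1, Sox2 and Nanog each had a peak in the gene or within 10 kb, as did 21.6% of all protein-coding genes. Sequencing depth is unknown.

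Mitochondrial ribosomes translate the few proteins encoded by mitochondrial DNA, which are subunits of the respiratory chain or of ATP synthase. All of their proteins are made from nuclear genes, translated in the cytosol and imported, and these genes are active in nearly every cell. The proteins have homologues in bacterial ribosomes or were added in the mitochondrial lineage. Cytoplasmic ribosomal proteins, the contrast here, build the ribosomes that translate nuclear mRNAs.

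The promoters are shown first, to let the letters at the starts of these genes be read beside the peaks. RefSeq starts (GRCm38.p6, whose chromosome positions are those of mm10) were listed for 69 of the 78 genes, with 75 promoters of 300 bases, from 250 before to 50 after the start. Some promoters of the same gene overlap, so counts are by gene. A peak overlapped a listed promoter of 0 of the 69 genes (exact 95% interval 0 to 5.21%), of 118 of 17492 protein-coding genes (0.675%) and of 2 of 58 cytoplasmic ribosomal protein genes (3.45%). At the share of all genes 0.465 of 69 would be counted, so the 0 is near the background. Printed below are the promoter nearest to a peak (Mrps18b), that of the gene with the highest-scoring peak (Mrps5), and, with letters of both NRF1 and Ets sites, that of a gene whose nearest peak is 231.6 kb away (Mrpl17). Mrps18b lies at chr17:35916391-35916690 on the minus strand, Mrps5 at chr2:127587176-127587475 on the plus strand and Mrpl17 at chr7:105811038-105811337 on the minus strand. Capitals mark matches on either strand to the Ets site CCGGAAG, the YY1 site ATGGCGG and the NRF1 core GCATGCG, which can overlap itself as CGCATGCG.
Mrps18b: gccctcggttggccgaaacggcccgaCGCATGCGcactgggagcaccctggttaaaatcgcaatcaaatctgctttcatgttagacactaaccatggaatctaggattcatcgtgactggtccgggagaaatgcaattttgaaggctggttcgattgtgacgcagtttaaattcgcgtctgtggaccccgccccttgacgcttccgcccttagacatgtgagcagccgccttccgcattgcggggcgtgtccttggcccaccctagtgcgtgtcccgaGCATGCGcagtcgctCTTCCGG
Mrps5: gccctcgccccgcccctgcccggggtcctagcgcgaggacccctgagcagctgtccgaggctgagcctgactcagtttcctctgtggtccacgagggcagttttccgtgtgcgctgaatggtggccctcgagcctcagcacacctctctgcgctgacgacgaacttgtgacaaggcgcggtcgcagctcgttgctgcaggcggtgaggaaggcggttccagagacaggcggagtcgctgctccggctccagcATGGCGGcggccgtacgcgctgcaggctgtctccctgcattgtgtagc
Mrpl17: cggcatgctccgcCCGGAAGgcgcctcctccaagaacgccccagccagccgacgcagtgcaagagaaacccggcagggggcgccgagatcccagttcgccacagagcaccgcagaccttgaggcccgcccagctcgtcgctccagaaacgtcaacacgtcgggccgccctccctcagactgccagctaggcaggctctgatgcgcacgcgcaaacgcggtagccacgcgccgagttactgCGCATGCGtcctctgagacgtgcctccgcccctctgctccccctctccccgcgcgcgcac

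The members' promoters shared letters that the choice by name did not use. NRF1 and the Ets factor GABP are known regulators of nuclear genes for mitochondrial proteins, and YY1 is a factor of many housekeeping promoters. The Ets site stood in a listed promoter of 26 of the 69 genes (37.7%), against 12.9% of all 17492 protein-coding genes with listed promoters of the same length. YY1 letters were found at 13 (18.8%, against 6.05%) and the NRF1 core at 8 (11.6%, against 4.96%). The promoters reach 50 bases past the start and the YY1 letters begin with ATG, so some may lie at a start codon. Coding sequence was not annotated here. The GC box GGGCGG (49.3% against 49.2%) and the CCAAT box CCAAT (39.1% against 42.3%) were closer to the share of all genes. Median GC content was 58.7% in the members' promoters and 56.3% in all, and the median number of CpG pairs was 21 and 13. The part of base composition in the motif shares was not tested. Of the 58 cytoplasmic ribosomal protein genes, 41.4% had the Ets site and 9 genes the YY1 site, shares near those of the members. The NRF1 core stood at 8.62% of them, and the letters TCTCGCG at 24.1%, against 4 of the 69 members (5.80%) and 3.93% of all genes.

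Peaks were rare at the ends of mitoribosomal protein genes. A peak was assigned to an end if its midpoint was at most 1 kb from it, on either side. Mrps18b was the only member with such a peak, 1 of 78 (1.28%, exact 95% interval 0.0325 to 6.94%). The share over all protein-coding genes was 2.67%. Among other protein-coding genes of like length, averaged over 20 length bins with the members' own numbers in each bin, it was 2.77%, which would correspond to 2.16 genes of 78. The members' share is near this background, whose value lies inside the interval. By contrast, 34 of 79 cytoplasmic ribosomal protein genes had a peak at an end (43.0%, interval 31.9 to 54.7%), where genes of their length gave 2.21%. The difference between both sets was 41.8 percentage points, with an interval of 29.3 to 53.5. Most of it came from peaks below the median score of the list: with only the peaks that reached it, 3 of 79 cytoplasmic genes and 0 of 78 members had a peak at an end, a difference of 3.80 points. Among the cytoplasmic genes with the highest scores at an end were Rps12 (20.1), Rps20 (10.2) and Rps9 (9.39). The score is the peak caller's own value for each peak and was taken to be a −log10 q-value.

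**Figure D1:**
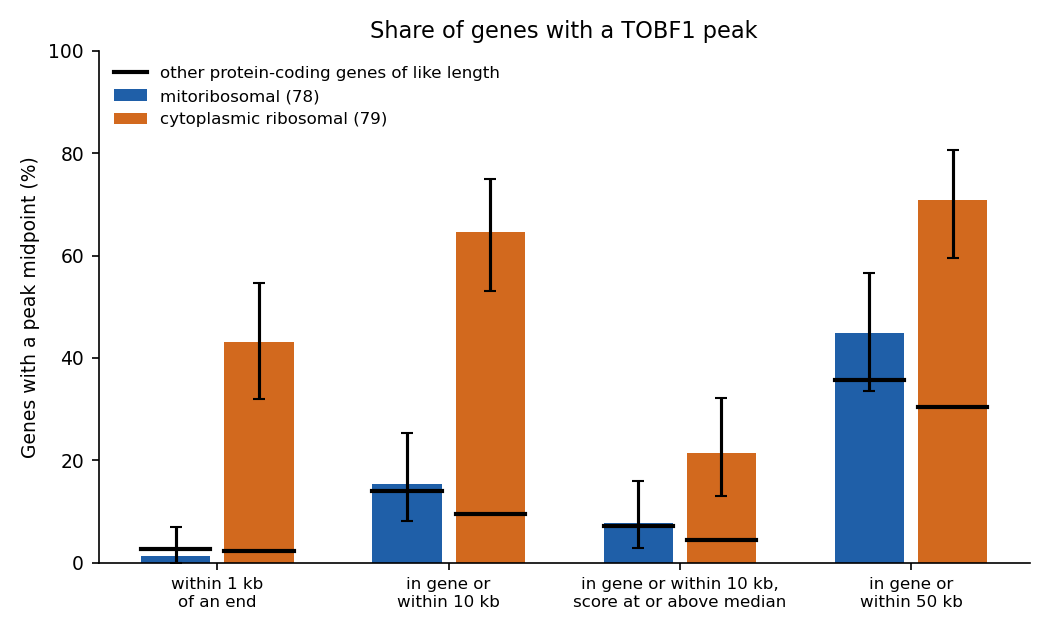
Share of genes with a TOBF1 peak midpoint (y axis, percent) in 4 windows (x axis), for 78 mitoribosomal and 79 cytoplasmic ribosomal protein genes; error bars are exact 95% intervals and black lines the share of other protein-coding genes of like length. Up to 10 kb the mitoribosomal bars stay near their black lines. Within 50 kb the bar stands at 44.9% against 35.8%, a line inside its error bar. The cytoplasmic bars stand at 43.0% against 2.21% at gene ends and at 64.6% against 9.49% within 10 kb.

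In the wider window the members again stood near genes of their length. A peak midpoint fell inside the gene, or no more than 10 kb outside, for 12 of 78 members (15.4%, exact 95% interval 8.21 to 25.3%). All protein-coding genes gave 21.6%, and other genes of like length 13.9%, or 10.9 of 78. Members are short, with a median length of 7691 bp (825 to 121712 bp), against 17169 bp for all protein-coding genes. Cytoplasmic ribosomal protein genes are shorter still, with a median of 3164 bp, and 51 of 79 had a peak (64.6%, interval 53.0 to 75.0%), where genes of like length gave 9.49%. Split by length, 3 of the 26 shortest members (11.5%), 3 of the 26 in the middle (11.5%) and 6 of the 26 longest (23.1%) had a peak. Other protein-coding genes in the same length ranges had 8.92%, 11.9% and 22.6%. The exact intervals of the members' shares (2.45 to 30.2%, 2.45 to 30.2% and 8.97 to 43.6%) held these values. They are too wide to show a trend with length among the members.

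At longer distances the members' shares stood above those of genes of their length. The distance from a member to the nearest peak midpoint, 0 if inside the gene, had a median of 63.7 kb (quartiles 17.0 and 138.9 kb). It was 71.1 kb over all protein-coding genes and 87.2 kb over genes of like length, while the median of the cytoplasmic ribosomal protein genes was 1.16 kb. The 95% interval of the members' median, 34.1 to 92.9 kb, held the values of all genes and of genes of like length. Within 50 kb, 35 of 78 members had a peak (44.9%, interval 33.6 to 56.6%), against 42% of all protein-coding genes and 35.8% of those of like length. Distances of 100 and 200 kb were chosen after the values were seen. Within 100 kb, 50 of 78 members had a peak (64.1%, interval 52.4 to 74.7%), against 59% of all genes and 54.2% of those of like length. Within 200 kb there were 70 (89.7%, interval 80.8 to 95.5%), against 78.3% of all genes and 76.1% of those of like length. The intervals at 50 and 100 kb held the like-length values, and that at 200 kb lay above its own. Of the cytoplasmic ribosomal protein genes, 87.3% had a peak within 200 kb. Members also more often have a close neighbouring gene (56.4% against 24.8% of all, described further on), whose part in these shares was not tested. The member farthest from any peak was Mrpl37 (666.9 kb), followed by Mrps18c (331.2 kb) and Mrpl53 (312.0 kb). Just beyond 10 kb lay Mrpl28 (12.2 kb), Mrpl41 (12.9 kb), Mrpl35 (13.3 kb), Mrpl57 (14.2 kb) and Mrpl36 (14.3 kb), all proteins of the large subunit.

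**Figure D2:**
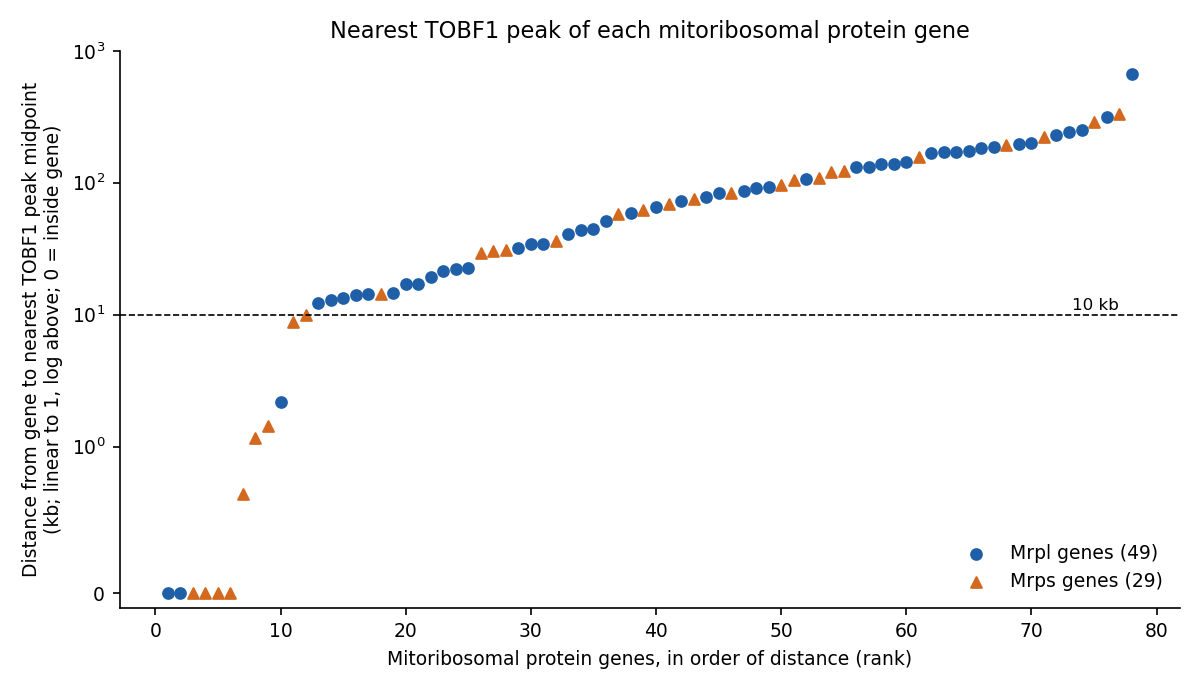
Distance from each of the 78 mitoribosomal protein genes to its nearest TOBF1 peak midpoint (y axis, kb, linear to 1 and logarithmic above, 0 for a peak inside the gene), with genes ordered by distance (x axis) and Mrpl and Mrps genes marked apart. Below the dashed line at 10 kb lie 12 genes, 9 of them Mrps genes, and distances run up to 666.9 kb.

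**Figure D3:**
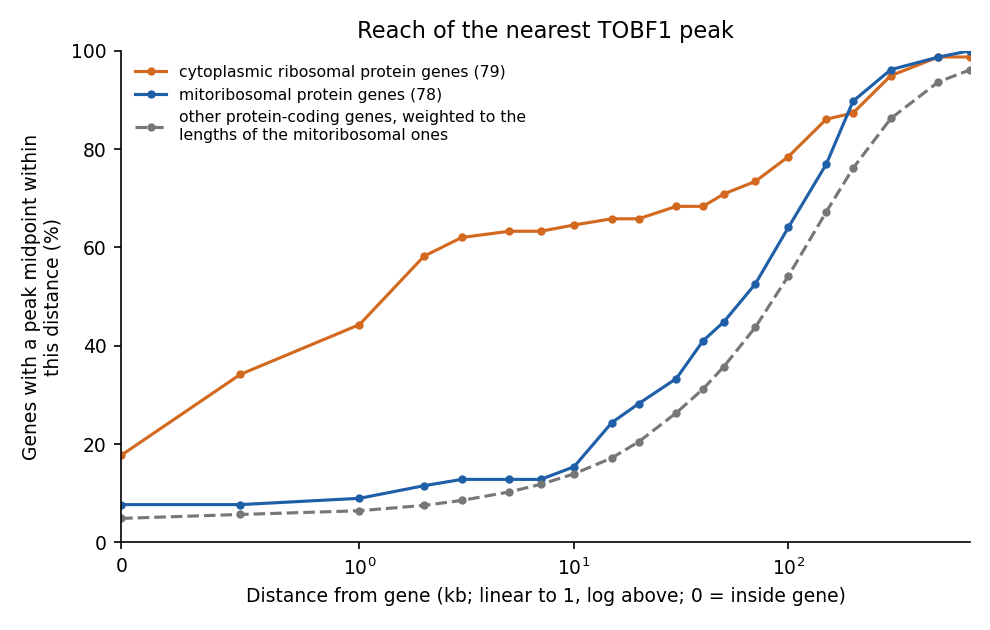
Share of genes with a peak midpoint within a given distance (y axis, percent; x axis in kb, linear to 1 and logarithmic above) for the 78 mitoribosomal genes, the 79 cytoplasmic ribosomal protein genes, and other protein-coding genes weighted to the lengths of the mitoribosomal ones. At 10 kb the curves stand at 15.4%, 64.6% and 13.9%.

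The 12 members within reach of a peak were mostly genes of the small subunit, which holds the decoding centre. Counted by symbol, 9 of 29 Mrps genes had a peak in the gene or within 10 kb (31.0%, exact 95% interval 15.3 to 50.8%) and 3 of 49 Mrpl genes (6.12%, interval 1.28 to 16.9%). Genes of like length gave 15.3% for the Mrps and 13.1% for the Mrpl genes. The difference was 24.9 percentage points (interval 5.85 to 45.3), and within 50 kb it was 5.42 points. Yet the interval of each set by symbol held its own like-length value, the Mrps one only just (lower bound 15.28%, like length 15.33%). By origin, 0 of 30 large-subunit proteins with bacterial homologues had a peak within 10 kb (interval 0 to 11.6%, like length 13.3%), and 3 of 21 large-subunit proteins specific to mitochondria did (like length 12.8%). In the small subunit the counts were 6 of 16 (interval 15.2 to 64.6%, like length 16.0%) and 3 of 10 (like length 15.1%). Of these groups, only the 0 of 30 had an interval that lay below its like-length value. This grouping follows the structures, which place Mrps30 and Mrps18a in the large subunit. Mrps36, now known as a component of the 2-oxoglutarate dehydrogenase complex, was left out of the grouping by origin, and its nearest peak was 14.3 kb away. With subunits taken from the structures, the difference within 10 kb was 28.7 percentage points, a setting chosen after the data were seen.

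Mrps18b, related to bacterial S18 but placed elsewhere in the small subunit and therefore counted above as specific to mitochondria, was the member with the peak closest outside its gene (chromosome 17, 35910380 to 35916440, minus strand). Its peaks numbered 4, and all lay before its start: at 678 bp (score 3.51), 1.48 kb (7.80), 1.86 kb (4.01) and 3.46 kb (2.48). Only 71 bases separate this gene from Ppp1r10, which encodes the PNUTS subunit of protein phosphatase 1 and is transcribed in the opposite direction. All 4 peaks lay inside Ppp1r10, whose end was the nearest gene end for each of them. Which of both genes the peaks belong to cannot be told apart by position. All 4 scores were below the median score of the list, 9.97. None of the 4 reached into the promoter printed above, although it is shared in part with that of Ppp1r10 on the other strand.

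**Figure D4:**
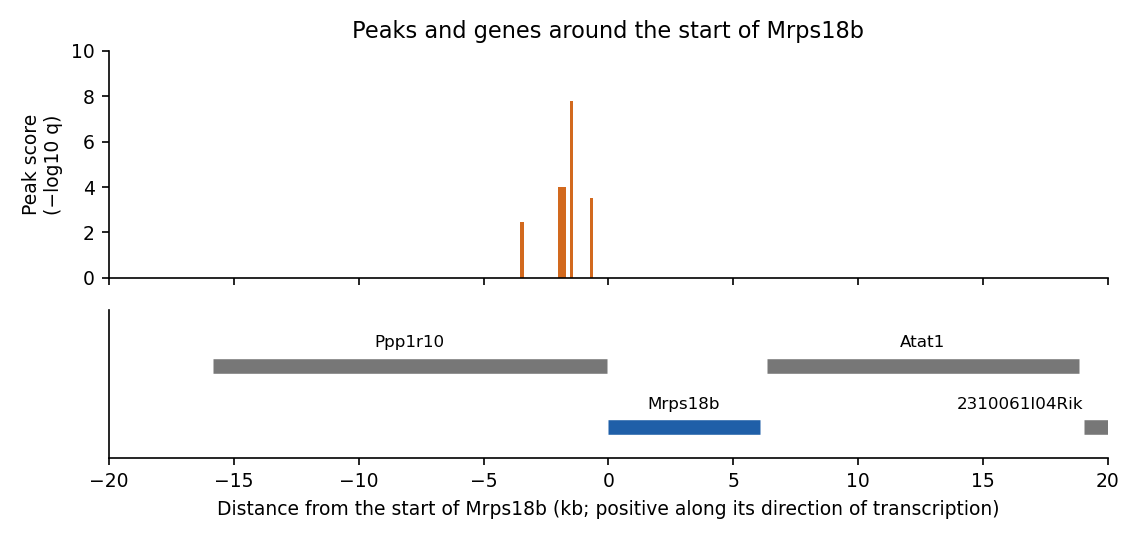
Peaks (upper panel, bars as wide as the peak, score as −log10 of a q-value on the y axis) and protein-coding genes (lower panel) within 20 kb of the start of Mrps18b, with distance in kb along its direction of transcription on the x axis. The 4 peaks, with scores of 2.48 to 7.80, stand before the start and inside Ppp1r10.

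The other small-subunit members had their peaks inside or beyond the far end, opposite the start. Mrps5, homologous to bacterial S5, had the highest score of any member, 43.6, at a peak 1.44 kb beyond its far end (chromosome 2, 127605264 to 127605579). Its score exceeded that of 93.0% of the chromosomal peaks, and no other protein-coding gene lay within 10 kb of it. Mrps23, specific to mitochondria, had a peak inside the gene with a score of 32.8 (chromosome 11, 88202104 to 88202467), 8.18 kb from its nearest end. This peak lay 2.10 kb before the start listed for Mrps23, and the nearest gene end was that of Cuedc1, 8.15 kb away. Mrps14, homologous to bacterial S14, had a peak 8.80 kb beyond its far end with a score of 29.98. That peak lay inside Cacybp, the calcyclin-binding protein gene, whose end was nearer (2.90 kb).

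Mrps9, homologous to bacterial S9, had 3 peaks with no other protein-coding gene within 10 kb of them. They lay inside the gene (score 4.90), 1.69 kb beyond the far end (14.4) and 8.11 kb beyond it (8.40). Mrps31, specific to mitochondria, had a peak inside the gene, 2.51 kb from its nearest end, with a score of 11.0. Mrps28 spans 121712 bp, the longest of the members, and had a peak deep inside, 57.5 kb from its nearest end, with a score of 5.41. Mrps24, homologous to bacterial S3, had a peak 1.16 kb beyond its far end, just outside the 1 kb window, with a score of 2.36, lower than all but 1.78% of the chromosomal peaks. The peak near Mrps17, homologous to bacterial S17, lay 9.89 kb beyond its far end and inside Nipsnap2 (score 5.26).

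In the large subunit, Mrpl58, the rescue factor that frees stalled mitochondrial ribosomes, had a peak inside the gene with a score of 18.1, 2.98 kb from its nearest end. Mrpl45, which sits near the exit of the peptide tunnel, had a peak inside the gene with a score of 3.74, 7.14 kb from its nearest end. Mrpl51 had a peak 2.19 kb beyond its far end (score 5.36). All 3 were counted above as specific to mitochondria, that is, without a homologue in bacterial ribosomes. For Mrpl58, the gene Atp5h lay within 10 kb of the same peak, and Ncapd2 lay within 10 kb of that of Mrpl51.

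In all, 17 peaks lay within 10 kb of a member. Their scores ran from 2.36 to 43.6 with a median of 5.41, where the 6966 peaks within 10 kb of any protein-coding gene had a median of 9.61. The median score of the whole list was reached by 6 of the 17, so that with such peaks alone 6 of 78 members (7.69%, interval 2.88 to 15.99%) had a peak within 10 kb. All protein-coding genes then gave 12.9% and genes of like length 7.19%. At an end, 0 of 78 members had a peak of that score, where all protein-coding genes gave 0.932%. The member's own end was the nearest protein-coding gene end for 10 of the 17 peaks, and another protein-coding gene lay within 10 kb of 9. Members often have a close neighbour: for 44 of 78 (56.4%) an end of another protein-coding gene lay within 1 kb, against 24.8% of all protein-coding genes. Of the 17 peaks, 0 lay in a dense region of 6 or more peaks at gaps of up to 10 kb. Shares over all peaks were not taken for dense regions, nearest ends or other genes within 10 kb, so those counts have no background.

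The sides of the genes separated both kinds of ribosomal protein gene further. Strand was known for 69 mitoribosomal and 58 cytoplasmic ribosomal protein genes. At the start, within 1 kb of the gene end where transcription begins, 1 of 69 members (1.45%, interval 0.0367 to 7.81%) and 3 of 58 cytoplasmic genes (5.17%, interval 1.08 to 14.4%) had a peak, against 1.46% of all 17492 protein-coding genes with a strand. Counted from any listed start, all protein-coding genes gave 1.57%. At the far end, the counts were 0 of 69 (interval 0 to 5.21%) and 26 of 58 (44.8%, interval 31.7 to 58.5%), against 1.63% of all. Within 10 kb, 106 gene-peak pairs belonged to the 58 cytoplasmic genes, and 87 of these lay beyond the far end, at a median of 1.38 kb from it, 16 inside the gene and 3 before the start. The 16 pairs at the 69 members leave out Mrps28 for want of a listed strand. Of these, 7 lay beyond the far end at a median of 2.19 kb, 5 inside and 4 before the start, the last all at Mrps18b. Sides were taken from the gene ends, so the Mrps23 peak, before its listed start but inside the gene, counts as inside. Cytoplasmic genes are short, so windows at both of their ends can overlap; the far-side peaks lie outside the gene and do not depend on this.

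**Figure D5:**
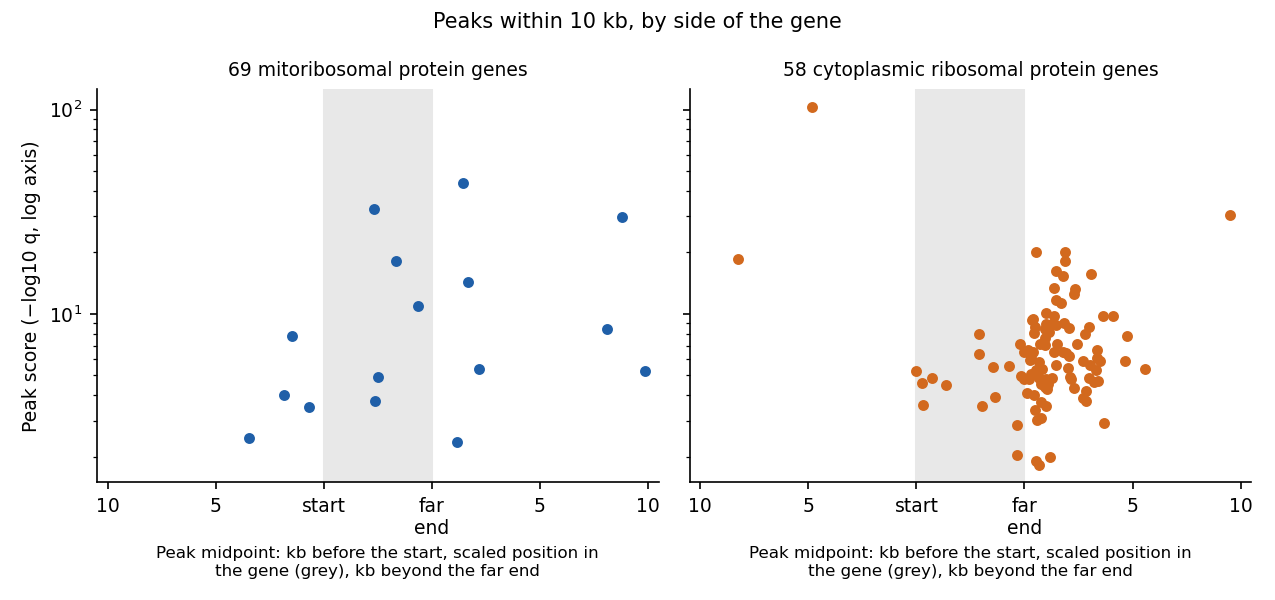
Peaks within 10 kb of 69 mitoribosomal (left) and 58 cytoplasmic (right) ribosomal protein genes, by position along the direction of transcription (x axis: kb before the start, scaled position within the gene in grey, kb beyond the far end) and score (y axis, −log10 of a q-value, logarithmic). Of the 106 cytoplasmic gene-peak pairs, 87 lie beyond the far end, at a median of 1.38 kb from it. The 16 mitoribosomal ones are scattered.

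Other genes of mitochondrial gene expression, taken from lists, had the following counts. Of the 5 mitoribosomal proteins with other symbols (Dap3, Chchd1, Ptcd3, Gadd45gip1 and Aurkaip1), 0 had a peak within 10 kb (exact interval 0 to 52.2%). Genes of like length gave 13.5%, or 0.677 of 5, so the 0 is near this background. Assembly factors of the mitoribosome had 5 of 25 (genes of like length 17.4%), led by Rbfa, a factor that binds the small subunit rRNA (score 37.0), and Malsu1 (11.0). Translation factors had 4 of 14 (28.6%, like length 18.4%), among them Mrrf, the ribosome recycling factor (42.3), Lrpprc, which stabilises mitochondrial mRNAs (23.1), Mtif3 (20.9) and Mtif2 (8.43), both initiation factors. The peak at Mtif2 also lies at the end of a neighbouring cytoplasmic ribosomal protein gene and is counted there too. The list of enzymes that charge mitochondrial tRNAs had 3 of 23 (13.0%, like length 23.8%), among them Yars2 (12.0) and Cars2 (6.69). That list also holds Gatb, Gatc and Qrsl1, which act on tRNAs already charged, and the cytosolic enzyme Qars. Genes of mitochondrial transcription and DNA maintenance, with regulators of nuclear genes such as Nrf1 counted among them, had 6 of 20 (like length 20.5%). The 6 include Tefm, a transcription elongation factor (42.3), Nrf1 (17.6) and Polg2, a subunit of the DNA polymerase (10.5). At an end, these lists gave 0 of 5, 0 of 25, 1 of 14 (Mtif2), 2 of 23 (Yars2 among them) and 1 of 20 (Polg2), where genes of like length gave 2.51%, 2.71%, 2.50%, 2.62% and 2.69%. For each list, the exact intervals of its shares within 10 kb and at an end held the like-length values.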

How the data were processed

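TOBF1 ChIP-Seq of 1 library was analysed as a deposited peak list. The submitters' processing notes name cutadapt, Bowtie2, MACS2, bedtools and the mm10 build. Their versions and settings, and any use of the input in peak calling, were not stated there. The authors deposited 1 score per peak, taken to be a −log10 q-value: its lowest value, 1.30, is just above −log10 of 0.05. It depends on sequencing depth, which is unknown, and was used only within the list.

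Positions are counted from 1. The 169 peaks on scaffolds were left out. Gene positions came from RefSeq (GRCm38.p6), and strands and starts from its promoter table, which lists 69 of the 78 members. Exons and untranslated regions were not annotated here, and no genome sequence was used. Shares have exact (Clopper-Pearson, 95%) intervals, which cover counting error only and treat genes as independent, although neighbours can share a peak. Shares in genes of like length are averages over 20 length bins of all other protein-coding genes, weighted by the members in each bin; each set was compared with all genes outside it. The interval of a difference combines the exact intervals of both shares. No test across samples was possible with 1 library, and none across genes was made. Of 167 entries in the lists of other genes, 166 matched; Mtrfr did not. Members with a peak within 10 kb, the 5 next beyond it, the 3 farthest, neighbours that share a peak, up to 6 genes per other list and up to 5 cytoplasmic genes by score at an end were named; some genes that this rule takes are not reported here. The members and lists were chosen with earlier results of these data known. Motifs were searched on both strands, a gene with several listed promoters was counted once, and the NRF1 and TCTCGCG letters were shortened after a first look at longer ones. Counting was tested on simulated data. Python 3.11.15, NumPy 2.4.6, pandas 2.3.3, SciPy 1.17.1 and matplotlib 3.10.9 were used. Alternatives were other windows, a score threshold, overlap in place of midpoints, merged peaks, other length bins and leaving out chromosome X or dense regions.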

Additional observations from a re-analysis of the deposited data

How the results depend on the processing

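Over 38 alternatives, 22 left the value within 1.5 times the count, or within its interval, and 16 moved it. With only the peaks that reached the median score, members with a peak at an end fell to 0, those within 10 kb to 6, the other genes of mitochondrial expression within 10 kb to 10 (from 18), and the difference between cytoplasmic and mitoribosomal genes at an end to 3.80 percentage points, while the median distance of members rose to 172.9 kb. The count at an end was also 0 within 500 bp, with peaks within 1 kb merged, and without the 4 peaks in Ppp1r10, and was 7 within 5 kb; at the listed start alone it was 1. Within 50 kb, 35 members had a peak, within 100 kb 50 and within 200 kb 70, and the difference between Mrps and Mrpl genes was 5.42 percentage points. The like-length share within 10 kb was 14.5% among genes of the members' chromosomes, from 13.9%. It was also 14.5% over all chromosomes with gene density and coarser length bins matched together, and 14.4% with 10 length bins alone. The difference between cytoplasmic and mitoribosomal genes was 3.72 points at starts only and 44.8 at far ends only. The cause of these changes was not tested, apart from the window or the number of peaks, which change by construction. Settings on gene density, distances of 100 and 200 kb, Ppp1r10, Mrps36, subunits, sides, and the score threshold for subunits and for the other genes of mitochondrial expression were chosen after seeing the data. No paired analysis was possible because each group has 1 library and the input has no file here.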
